A study of Mus musculus with 48 samples.

Results

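Row A and row B are 2 of the 32377 unnamed features in a count table from AML12 cells, an immortalised line of mouse hepatocytes. The letters stand for the rows' places in that table, which are given with the processing. They were chosen by measured values: a 24-h wave in wild-type cells with its peak between 36 and 42 h, and a higher level in cells lacking Bmal1. Of 33 features with a called wave in wild type, 10 peaked in that window and 9 of these were also called higher in the knockout. Rows A and B ranked 1 and 2 of the 9 by the size of that rise, and 3 and 5 by the height of the wild-type wave. The rise was 2.00 and 0.94 on the log2 scale in these 2 rows, 0.92 in the next of the 9 and 0.40 in the lowest. Because these values chose the rows, the wild-type wave and the rise are described below without a test. Both rows passed the filter on low counts, which kept 8617 features.

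The series measured RNA by bulk Smart-seq3, a full-length cDNA method, in 48 libraries. Wild-type cells (WT, the control) and Bmal1-KO cells (KO) each gave 24 libraries, with 4 at each of 18, 24, 30, 36, 42 and 48 h, the number in the title being read as hours. All groups were grown in the same medium with fetal bovine serum, insulin-transferrin-selenium, antibiotics and dexamethasone, a glucocorticoid. All were then given a 1-h dexamethasone pulse to set their clocks to a common phase. Nothing in the labels gives the moment at which time was started, the number of clones behind the KO cells, or separate cultures for the 4 libraries of a group. The p-values below therefore cover the spread among these libraries alone, and that spread may be technical.

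BMAL1 pairs with CLOCK to form the activator of the core circadian loop, which switches on genes with E-box elements, among them the Per and Cry genes whose proteins then inhibit it. A second loop runs through the nuclear receptors REV-ERB and ROR, where REV-ERB proteins, themselves driven by BMAL1 and CLOCK, repress genes with ROR elements. In textbook accounts E-box targets fall without BMAL1, while genes under REV-ERB repression can rise and peak in another part of the day. In liver cells the clock and glucocorticoid signals both time metabolic genes. The table gives no name, identifier or length for its rows, so it cannot be said to which of these groups rows A and B belong, and no sequence is shown for them.

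For the same reason hepatocyte markers, markers of other cells, the clock genes and the disrupted Bmal1 gene were not looked up, and the identity of the cells and of the KO was not checked in these data. Library totals ran from 72398 to 795991 counts, with 3 libraries under 100000 (1 each at WT 18 h, WT 24 h and KO 48 h). The number in the library name changed between 30 and 36 h in both genotypes and differed between the genotypes, so a difference between WT and KO cannot be told apart from one between library numbers. CPM, the count scaled by library size and TMM factor, compares 1 row across libraries. Without row lengths it does not rank 1 row against the other. In such bulk samples a share of cells with more RNA of a row cannot be told apart from more of it in every cell, nor fewer cells of a type from less RNA per cell.

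Both rows were higher in KO cells at all 6 times, and both fitted waves were shallower there on the log2 scale. The rows were chosen on the WT wave, so the difference in waves was not tested. In row A the 18 minus 30 h difference was nearly the same in both genotypes (0.48 in KO, 0.50 in WT). Its 36 minus 48 h difference was 0.01 in KO and 1.30 in WT. Row A averaged 83.5 ± 27.0 CPM in WT and 334.1 ± 50.3 CPM in KO (SD, n = 24), and every KO library lay above every WT library. Row B averaged 59.05 ± 21.1 CPM in WT and 114.5 ± 22.5 CPM in KO (SD, n = 24). For row B the genotypes overlapped when all times were pooled: 21 of 24 KO libraries lay above the highest WT library, WT 42 h replicate 3 with 94.2 CPM. Both rows were chosen for their rise in KO, so these separations add nothing to that choice. The share of all tested features with such a pooled separation was not computed. The values rest on modest counts per library, from 3 to 223 in row A and from 0 to 66 in row B.

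**Figure D1:**
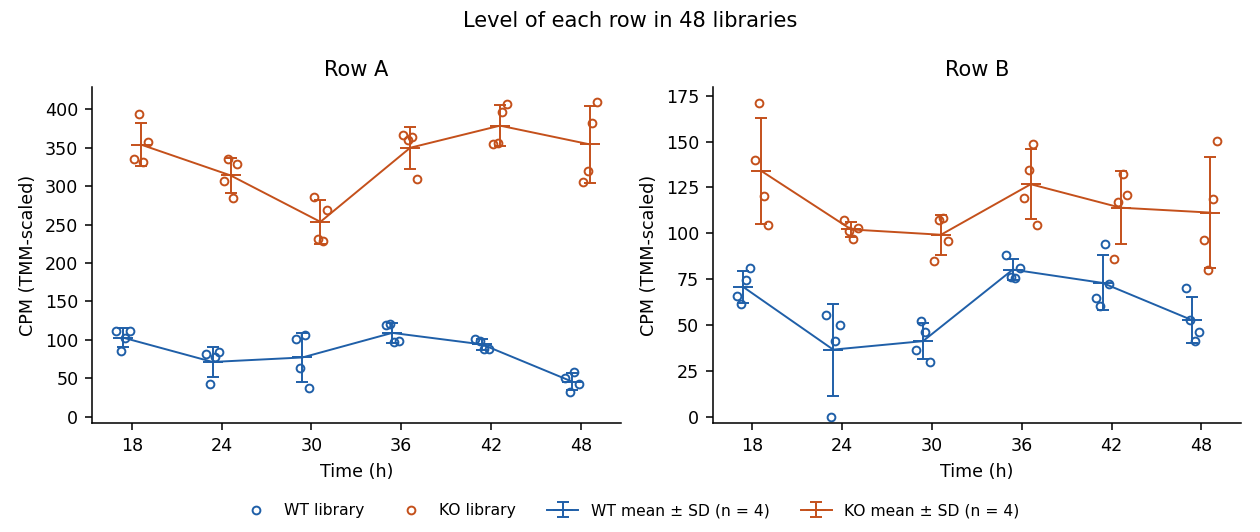
CPM of rows A and B (vertical axes, from just below 0) in each of 48 libraries against time in hours, WT in blue and KO in orange; circles are libraries, horizontal marks and bars are mean ± SD of 4 libraries, and lines join the means. Row A runs from 32.1 to 121 CPM in WT and from 228 to 410 CPM in KO, while in row B the KO libraries lie closer to the WT libraries, with an overlap at 42 h.

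In WT cells row A stood at 112, 85.8, 103 and 112 CPM in replicates 1 to 4 at 18 h. At 24 h the 4 libraries gave 81.1, 42.7, 77.8 and 83.8 CPM. At 30 h they gave 101, 63.9, 106 and 37.6 CPM. The 18-h libraries were all above those of 24 h, whereas at 30 h 2 libraries were near the 18-h level and 2 well below it. Replicate 2 at 24 h, the shallowest library of the series, holds only 3 counts of this row. At 36 h the level was 119, 121, 97.2 and 99.2 CPM, and at 42 h it was 101, 98.5, 88.5 and 88.4 CPM. At 48 h it was 50.8, 32.1, 58.7 and 42.05 CPM. The 48-h libraries were all below those of 36 and 42 h, and the 48-h mean of 45.9 ± 11.4 CPM was the lowest in WT, against 109 ± 12.7 CPM at 36 h, the highest (SD, n = 4).

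In KO cells row A was at 335, 393, 331 and 357 CPM at 18 h. The libraries of 24 h gave 307, 335, 285 and 328 CPM, and those of 30 h gave 286, 231, 228 and 269 CPM. The low point was at 30 h, with all 4 libraries below every 18-h library and a mean of 253.6 ± 28.4 CPM (SD, n = 4). At 36 h the row was at 366, 360.1, 364 and 309 CPM. At 42 h it reached 355, 356, 396 and 407 CPM, its highest mean at 378.7 ± 27.04 CPM (SD, n = 4). At 48 h it stayed at 305, 320.1, 382 and 409.8 CPM. From 36 h on no KO library of this row was below 305 CPM, including those of 48 h, the time of its lowest WT level.

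Row B in WT cells was at 65.6, 61.3, 74.6 and 81.3 CPM at 18 h. At 24 h it was at 55.3, 0, 41.3 and 49.8 CPM, and at 30 h at 36.1, 52.3, 46.4 and 30.08 CPM. The 24-h and 30-h libraries all lay below those of 18 h. The value of 0 is replicate 2, with no count of this row among 72398. A count of 0 there allows a level of up to 42.7 CPM (3 counts, counting error only), which is above the 41.3 CPM of replicate 3. At 36 h row B was back at 88.05, 76.1, 75.6 and 81.2 CPM. At 42 h it was at 64.8, 60.6, 94.2 and 72.2 CPM, and at 48 h at 70.1, 53.02, 41.2 and 46.1 CPM. The mean was highest at 36 h, with 80.2 ± 5.80 CPM, and lowest at 24 h, with 36.6 ± 25.1 CPM (SD, n = 4), and the 48-h libraries were again all below those of 36 h. The low point at 24 h rests on the library at 0: without it the 24-h mean was 48.8 ± 7.04 CPM (SD, n = 3) and the lowest was that of 30 h, at 41.2 CPM. The fitted levels, which weigh libraries by depth, were also lower at 30 h (38.9 CPM) than at 24 h (46.7 CPM).

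In KO cells row B was at 139.98, 171, 120.4 and 104 CPM at 18 h. The 24-h libraries gave 107, 101, 96.9 and 103 CPM, and the 30-h libraries 85.04, 107, 109 and 96.0 CPM. These 2 times had the lowest KO means, at 102 ± 4.32 and 99.2 ± 11.0 CPM, and 18 h the highest, at 134 ± 28.7 CPM (SD, n = 4). At 36 h the row was at 119, 134, 149 and 105 CPM. At 42 h it was at 85.9, 117, 132 and 121 CPM, and at 48 h at 96.2, 80.03, 119 and 150.2 CPM. The 48-h libraries of KO spread over nearly the whole range of the row in KO, so a fall after 36 h is not seen in every library.

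Ordered by mean level, the 12 groups of each row put all 6 WT groups below all 6 KO groups. In row A the only neighbours in that order whose libraries did not overlap were the highest WT group, 36 h, and the lowest KO group, 30 h at 253.6 CPM. In row B all 11 neighbours overlapped, including WT 36 h and KO 30 h at 80.2 and 99.2 CPM. The choice of the rows used their higher level in KO, so the order of the genotypes adds nothing to it. How many of all tested features have the same order was not computed.

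The rise in KO was larger in row A than in row B. Averaged over the 6 times, its log2 change was 2.00 (SE 0.07), a 4.01-fold rise with a 95% interval of 3.63 to 4.43. For row B it was 0.94 (SE 0.09), or 1.92-fold with an interval of 1.70 to 2.17. Of all tested features, 23.0% were called higher in KO, meaning an adjusted p under 0.05 by edgeR, and both rows belong to them by the way they were chosen. Only 0.0348% of tested features had a larger rise than row A, and 1.17% a larger one than row B, while the median over all tested features was -0.01 on the log2 scale. These are relative to TMM scaling, which sets the typical change near 0.

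The size of the rise moved with time in different ways in the 2 rows. In row A the log2 change began at 1.72 (SE 0.17) for 18 h, 2.00 (SE 0.18) for 24 h and 1.75 (SE 0.18) for 30 h. The later times gave 1.63 (SE 0.19) for 36 h, 2.01 (SE 0.16) for 42 h and 2.91 (SE 0.19) for 48 h. The 48-h change, 7.54-fold with an interval of 5.82 to 9.77, lay above the intervals of the other 5 times, and it is there that the WT level was lowest and the KO level still high. In row B the log2 change began at 0.86 (SE 0.21) for 18 h, 1.14 (SE 0.23) for 24 h and 1.35 (SE 0.24) for 30 h. The later times gave 0.71 (SE 0.23) for 36 h, 0.56 (SE 0.19) for 42 h and 1.05 (SE 0.21) for 48 h. Its smallest changes fell at the 2 times of highest WT mean, 1.63-fold at 36 h and 1.47-fold at 42 h, and the largest was 2.55-fold at 30 h. These differences between times hold the WT wave that chose the rows and were not tested.

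All 4 KO libraries lay above all 4 WT libraries at 6 of 6 times in row A and at 5 of 6 in row B, where 42 h was the exception. Among all tested features the share with such a separation was 7.33% at 18 h, 8.15% at 24 h, 6.12% at 30 h, 6.17% at 36 h, 10.7% at 42 h and 8.15% at 48 h. It was 0.720% for separation at all 6 times. The choice of the rows used the rise in KO, so these counts add nothing to it.

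**Figure D2:**
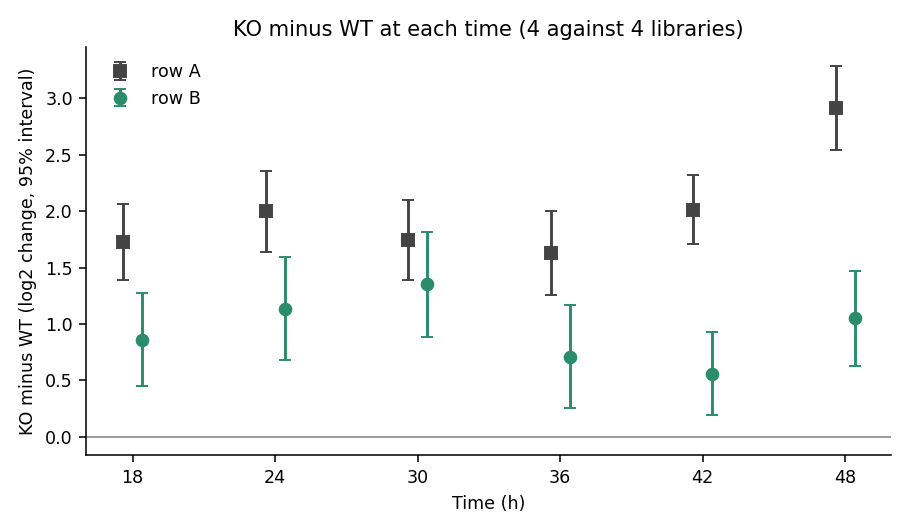
KO minus WT as log2 change (vertical axis, bars are 95% intervals) at each time in hours, from 4 against 4 libraries, with squares for row A and circles for row B. Row A lies between 1.63 and 2.91 with its highest value at 48 h, and row B between 0.56 and 1.35 with its highest value at 30 h.

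The WT waves of the 2 rows had nearly the same height. In row A the fitted amplitude, the height of the 24-h cosine above its mean, was 0.52 (SE 0.09) in log2 units, with the peak at 37.6 h (SE 0.70). In row B it was 0.50 (SE 0.09) with the peak at 39.6 h (SE 0.82). From trough to peak this is 2.05-fold (95% interval 1.58 to 2.65) and 2.00-fold (1.55 to 2.59). Over all tested features the median WT amplitude was 0.15, and 0.383% were called, both rows among them by choice.

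Row A departed from the fitted cosine in WT, with unlike levels at 24 and 48 h. Its WT level minus the fitted wave was 0.37 at 24 h and -0.41 at 48 h in log2 units, although both times have the same place in a 24-h cycle. The WT change from 24 to 48 h was -0.77 (SE 0.22), and that from 18 to 42 h was -0.21 (SE 0.18). Row B followed the cosine more closely, its largest departure in WT being -0.17 at 30 h, and changed by 0.15 (SE 0.24) from 24 to 48 h and by 0.05 (SE 0.21) from 18 to 42 h. Each of these pairs crosses the change of library number. With library number as a term in the fit the WT amplitudes were 0.60 and 0.47.

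Within a library number, times 12 h apart show the WT wave without that change. In row A, 18 h exceeded 30 h by 0.50 (SE 0.20) and 36 h exceeded 48 h by 1.30 (SE 0.22) on the log2 scale. In row B the same differences were 0.91 (SE 0.25) and 0.61 (SE 0.23). In row A the later step was the larger. The earlier step of row A rests on WT 30 h replicates 2 and 4, at 63.9 and 37.6 CPM. Replicates 1 and 3 of that group, at 101 and 106 CPM, were near the 18-h level. In row B the SEs of both steps are nearly as large as the gap between them, so they are not ordered.

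**Figure D3:**
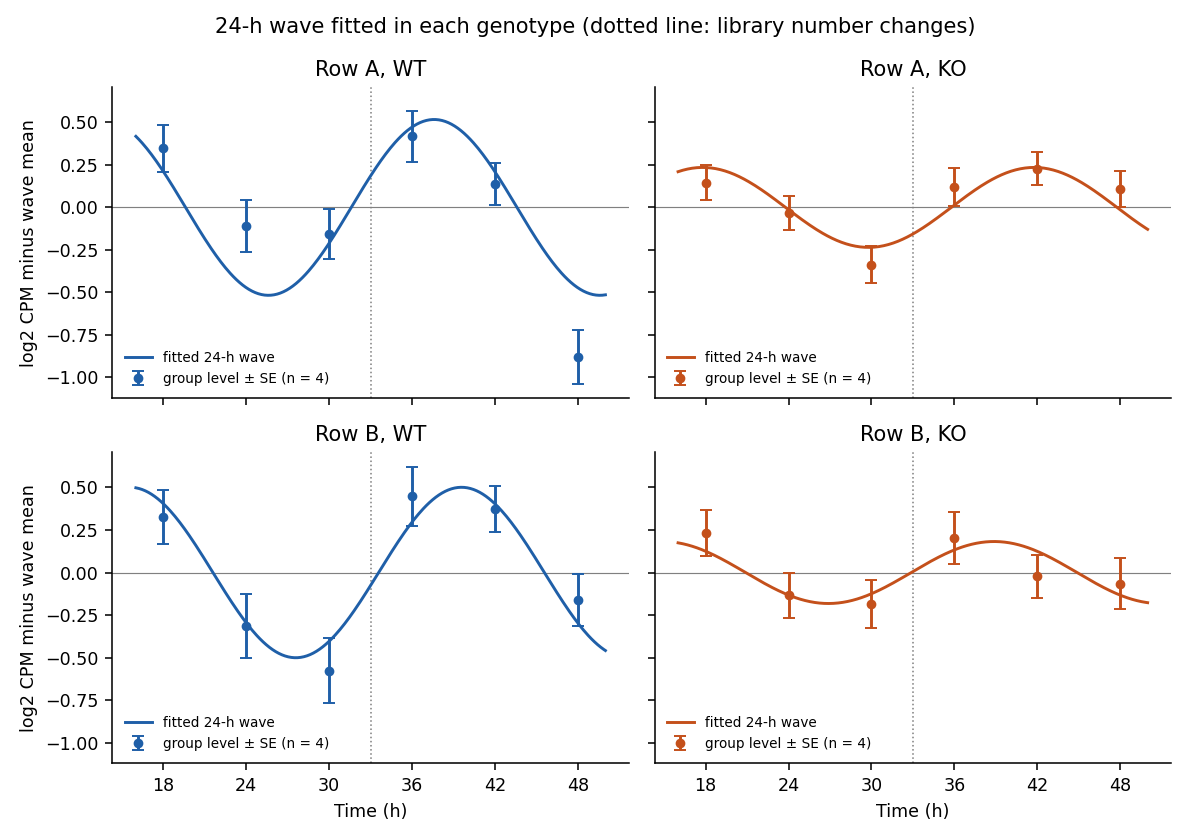
Level in log2 CPM minus the mean of the fitted wave (vertical axis) against time in hours for rows A and B in WT (blue) and KO (orange); points and bars are group levels ± SE of 4 libraries curves are the fitted 24-h cosine, and the dotted line marks the change of library number. The WT waves rise 0.52 and 0.50 above their mean and the KO waves 0.24 and 0.18, and the WT 48 h point of row A lies below its line, at a departure of -0.41.

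In KO cells neither row had a called wave. The wave within KO libraries was not used to choose the rows, so it was tested. Row A had an amplitude of 0.24 (SE 0.07) with a peak at 41.8 h (SE 1.18). Its unadjusted p was 0.00459 (edgeR quasi-likelihood, KO terms in the fit of all 48 libraries), which became 0.323 after adjustment over all features. Row B had an amplitude of 0.18 (SE 0.08) with a peak at 38.9 h (SE 1.87), an unadjusted p of 0.0910 and an adjusted p of 0.571 by the same test. A called KO wave was rare, at 0.0116% of tested features, and 845 features had an unadjusted p under 0.05. DESeq2 gave adjusted p values of 0.141 and 0.549 for rows A and B, and limma voom 0.295 and 0.598. The missing calls do not show that the KO cells had no wave. The fitted range from trough to peak in KO was 1.39-fold in row A and 1.29-fold in row B, with upper Wald bounds of 1.67-fold and 1.61-fold. An amplitude cannot be negative, so a lower Wald bound is no test of a wave and is not given. In size, 25.96% of tested features had a larger KO amplitude than row A and 41.5% a larger one than row B, against a median of 0.16.

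A test of any difference between the 6 times in KO gave adjusted p values of 0.154 for row A and 0.626 for row B (edgeR quasi-likelihood), with 0.963% of features called. In KO the 18-h level minus the 30-h level was 0.48 (SE 0.15, adjusted p = 0.181, edgeR) in row A, against 0.50 in WT. In row B it was 0.42 (SE 0.20, adjusted p = 0.448, edgeR), against 0.91 in WT, and 0.116% of features were called. Between 36 and 48 h the KO difference was 0.01 (SE 0.15, adjusted p = 1.00, edgeR) in row A, against 1.30 in WT. In row B it was 0.27 (SE 0.21, adjusted p = 0.874, edgeR), against 0.61 in WT, and 0.0232% of features were called. This last KO value rests on single libraries: among the KO libraries of 48 h, leaving out replicate 1 gave 0.18, replicate 2 gave 0.13 and replicate 4 gave 0.49. The 18 minus 30 h difference of row B was 0.27 without KO 18 h replicate 2. None of these 4 KO differences passed the test. Across the change of library number, KO levels moved from 18 to 42 h by 0.08 (SE 0.14) in row A and by -0.25 (SE 0.19) in row B. From 24 to 48 h they moved by 0.14 (SE 0.15) and 0.07 (SE 0.20).

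Set side by side, the log2 amplitude in KO minus that in WT was -0.28 (SE 0.12) in row A and -0.32 (SE 0.13) in row B. The rows were chosen on the WT wave, which by itself favours a smaller KO amplitude, so this difference is a description and was not tested. Over all tested features the WT amplitude was the larger in 46.4%. The fitted KO peak came 4.19 h (SE 1.37) after the WT peak in row A. In row B the KO peak minus the WT peak was -0.69 h, smaller than its SE of 2.04 h. The time of the WT peak was part of the choice of the rows, and neither row had a called KO wave. The peak shifts are therefore descriptions too and were not tested. In row A the WT levels also departed from the fitted cosine, by 0.37 at 24 h and -0.41 at 48 h in log2 units. In CPM the order of the genotypes depends on the row. The highest and lowest group means of row A were 63.2 CPM apart in WT and 125 CPM apart in KO, a ratio of 2.38 against 1.49. In row B they were 43.6 CPM apart in WT and 34.8 CPM in KO, a ratio of 2.19 against 1.35. Without the WT library at 0 the WT values of row B were 38.99 CPM and a ratio of 1.95. The KO variation of row A was thus smaller as a ratio and larger in CPM than that of WT.

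Over all groups together, the spread between libraries was not far above counting error in both rows. The chi-square statistic per degree of freedom, which is 1 for pure counting error, was 1.36 in row A and 1.15 in row B, against a median of 1.29 over tested features. Single groups differed: in row A at WT 30 h the SD was 32.4 CPM where counting error alone gives 14.8 CPM, and in row B at WT 24 h it was 25.1 against 15.6 CPM. In the other 22 groups of the 2 rows the SD was at most 1.30 times that of counting error. The SD within a group ran from 7.13 to 42.0% of the mean in WT and from 7.14 to 14.1% in KO for row A. For row B it ran from 7.23 to 68.5% in WT and from 4.23 to 27.3% in KO.

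Between libraries of a group the 2 rows correlated positively in both genotypes, and neither correlation passed the test as computed here. The KO result depended on the setting when read without adjustment over the 2 genotypes. In KO r was 0.54 (unadjusted permutation p = 0.0315) without TMM factors and 0.68 (unadjusted permutation p = 0.0234) without replicate 1. In WT r was 0.19 (permutation p = 0.613) without the libraries under 100000 counts. Deviations of log2(CPM + 1) from the group mean, which the choice of the rows did not use, were compared within each genotype. In WT Pearson's r was 0.51 (permutation p = 0.0642, n = 24) and Spearman's rho 0.41 (permutation p = 0.0949). In KO r was 0.50 (permutation p = 0.0518, n = 24) and rho 0.42 (permutation p = 0.0966). Adjusted over the 2 genotypes the p values were 0.0642 for both r and 0.0966 for both rho. Without the 2 libraries farthest from the median in row A, r was 0.21 in WT, where the relation rests on those libraries (WT 30 h replicate 4 and WT 24 h replicate 2), and 0.43 in KO. Both values of a library share its depth and its scaling factor.

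Over the 12 group means of log2(CPM + 1), rows A and B correlated at 0.81, which ranked row B at 594 of 8616 features by likeness to row A, and row A at 341 by likeness to row B. Within the 6 WT groups r was 0.48 and within the 6 KO groups 0.66. The feature most like row A was row 10292 (r = 0.99), at 117 ± 24.2 CPM in WT and 282 ± 36.0 CPM in KO (SD, n = 24). Its r with row A was 0.92 within WT and 0.80 within KO. The feature most like row B was row 21393 (r = 0.98), at 18.4 ± 8.34 CPM in WT and 30.1 ± 9.72 CPM in KO (SD, n = 24). Here the likeness lay in WT, with an r of 0.997 over its 6 groups, and in the step between genotypes, since r was 0.09 within KO. That WT value includes the 24-h mean of row B with its library at 0. Row 21393 was at 13.9 ± 12.3 CPM in that group (SD, n = 4). That mean is below the 42.7 CPM that 3 counts give in WT 24 h replicate 2, so it rests on few counts there. Both most-like rows were picked as the highest r of 8616 features. An r above 0.9 was reached by 195 features for row A and by 68 for row B. These values describe 12 points from the same libraries, in which the difference between genotypes weighs most. Rows A and B were both chosen for their WT wave and rise in KO, so their likeness follows in part from the choice.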

How the data were processed

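The deposited table holds whole-number counts, made per the file headers from alignment files that had been sorted and deduplicated. The submitters' processing notes name STAR 2.5.4b and mm10 (GRCm38). Numbering data rows from 1 after the header, row A is row 10986 and row B is row 7167. The counter, annotation, strand setting and use of molecular identifiers are not given in the sources used here. Of 180 value columns, 48 matched a sample by library name and 132 were not used. Replicate pairs all differed beyond sampling noise (chi-square per degree of freedom 1.13 to 6.65 over 72 pairs), and no library was merged or dropped.

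Features were filtered with filterByExpr (minimum count 10, minimum total 15), scaled by TMM and fitted with the quasi-likelihood test of edgeR 4.0.16 in R 4.3.3. One fit had 12 group means, the other had, for WT and for KO, a mean and a cosine and sine term of 24-h period. All 48 libraries entered both. Benjamini-Hochberg adjustment ran over 8617 features (97.3% of counts). SEs and 95% intervals are Wald values from the fits and cover the spread between libraries. DESeq2 1.42.0 and limma 3.58.1 were alternatives. Correlations used two-sided permutation within groups (100000 resamples). The fits were tested on simulated data. The alternatives concerned size factors, filters, tools, replicate and letter blocks, library number, depth, period, a linear term and left-out libraries.

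The rows and tests were chosen with earlier results of these data known. Besides the members, the rule for naming took the 1 row most like each over 12 group means. Marker and clock gene lists could not be applied to rows without names.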

Additional observations from a re-analysis of the deposited data

Results flagged for a closer look

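In 2 of 24 sets of 4 libraries 1 value stood apart from the other 3, where about 1 in 20 sets, or 1.2, would by chance. Row A was at 308.8 CPM (59 counts) in KO 36 h replicate 4 against 360.1 to 366 CPM in the other libraries of that group. In WT 24 h replicate 2 its level was 42.7 CPM, from 3 counts in the shallowest library, where the other libraries of that group gave 77.8 to 83.8 CPM.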

How the results depend on the processing

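Neither row had a called KO wave, a called difference between KO times or a called 12-h step in KO under any alternative run. DESeq2 gave no adjusted p for the 36 minus 48 h step of row B. Nearest to a call was the difference between KO times in row A, with an adjusted p of 0.0557 (edgeR) for KO alone. Without the libraries under 100000 counts it was 0.0896 (edgeR), against 0.154 in the main fit. The KO minus WT change lay between 1.91 and 2.07 (row A) and between 0.90 and 1.01 (row B) when libraries were left out. Thinned to the smallest total in a single random draw, with the spread between draws not measured, the WT amplitudes were 0.71 (row A) and 0.73 (row B). The KO values also moved then: the amplitude of row A was 0.11, the 18 minus 30 h differences 0.24 (row A) and 0.21 (row B), the 36 minus 48 h difference of row B 0.65 and its largest difference between KO times 0.80. With libraries left out, row B ranged from 0.11 (without replicate 2) to 0.27 in KO amplitude, from 0.27 to 0.57 in 18 minus 30 h, from 0.09 to 0.57 in 36 minus 48 h and from 0.37 to 0.67 in its largest difference. The KO 36 minus 48 h difference of row A, 0.01, was -0.0061 without a filter, -0.0063 thinned and between -0.093 and 0.17 with libraries left out. The correlation of the rows in KO was 0.54 without TMM factors (unadjusted permutation p = 0.0315). It was 0.32 to 0.68 with replicates left out, 0.68 (unadjusted permutation p = 0.0234) without replicate 1. In WT it was 0.36 to 0.59 with replicates left out and 0.19 without libraries under 100000 counts.

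Counts over all features moved more, and the cause was not tested. Main counts were 33 WT waves, 1 KO wave, 83 features differing between KO times, 10 and 2 for 18 minus 30 h and 36 minus 48 h in KO, and 1979 higher and 1963 lower in KO. No filter gave 93 WT waves, 32 KO waves, 191 differing between times and 4 for 36 minus 48 h. A filter of 5 CPM in 12 libraries gave 1 for each step. DESeq2 gave 63, 21 and, for 36 minus 48 h, 5, and limma voom 3 KO waves. Each genotype alone gave 16, 17, 172 and 25 (18 minus 30 h). Library number as a term gave 126 WT and 3 KO waves. Without the 3 libraries under 100000 counts there were 81, 9, 146 and 35. Thinning gave 7, 0, 3, 0 and 0, with 556 higher and 559 lower. A period of 22 h gave 60 WT waves, one of 26 h 3 KO waves, and a linear term 65 and 21. Leaving out libraries gave 12 to 70 WT waves (70 without WT 24 h replicate 2), 0 to 2 KO waves (2 without KO 18 h replicate 4, KO 24 h replicate 1, KO 24 h replicate 4 or KO 30 h replicate 1), 14 to 97 differing between times, and 0 to 14 and 0 to 2 for the steps. The 18 minus 30 h count was 0 to 6 without any 1 of KO 18 h replicates 1, 2 and 3, KO 24 h replicates 3 and 4, KO 30 h replicates 2, 3 and 4, KO 42 h replicate 3 and KO 48 h replicate 1. The 36 minus 48 h count was 0 or 1 without any 1 of the KO 36 h libraries or of KO 48 h replicates 1 and 2.

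With a replicate block the KO amplitudes were 0.24 (edgeR adjusted p = 0.366) and 0.18 (adjusted p = 0.618), and no call of either row changed. The labels do not say that the numbers pair libraries, and 8 of 24 same-numbered pairs correlated above 0.1 (range -0.17 to 0.31), so they were not treated as pairs. As a hint from the data, 21 of 48 libraries correlated best with their own number, where 12 would by chance. Same-numbered WT and KO libraries of a time also share the letter in the library name, so number and letter cannot be told apart here. A block on the letter in the library name could be fitted only for KO minus WT (2.03 and 0.95), since letters are tied to times. The 9 to 65 counts per KO library in row B limit what a test of its KO wave can show.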
